A study of Mus musculus with 9 samples.

Results

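The retinoic acid genes described here are 9 of the 23201 genes in the deposited tables of embryonic mouse cortex: the carriers Crabp1 and Crabp2, the synthesis enzyme Aldh1a2, the degradation enzyme Cyp26b1, and the receptors Rara, Rarb, Rarg, Rxra and Rxrb. They were named for their role in binding, making, breaking down or sensing retinoic acid, with the high Crabp2 level of homozygous embryos already known. Each gene is represented by its RefSeq transcript with the highest mean over all libraries. Of the 9 genes, 8 had a mean of at least 0.5 RPKM (read numbers scaled by transcript length in kilobases and by library size) and were tested, and Cyp26b1 lay under that limit.

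Embryos of 3 genotypes were sequenced, with 3 libraries in each group and 1 embryo per library. The first group is homozygous for a knockout of Sfpq (Sfpq-/-), the second is heterozygous (Sfpq+/-), and the third is the control. These genotypes follow the sample titles and the genotype tag, since the text on RNA extraction writes Sfpq+/- for both mutant groups. All embryos were at E13.5 and carried the mixed background labelled C57BL/6+C57BL/6J+CBA. The tissue was cerebral cortex, its cells labelled as neuronal stem cell + neuron, and total RNA was read after ribosomal RNA had been removed. Sfpq encodes a nuclear RNA-binding protein. How the allele was made, whether a Cre line acted on it and which litters the embryos came from were not stated in the labels used here.

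Retinoic acid is made from retinol in steps, first to retinal by retinol dehydrogenases and then to the acid by retinal dehydrogenases such as Aldh1a2, which in the developing forebrain is best known from the meninges. Crabp proteins carry the acid inside the cell, Crabp2 handing it to nuclear receptors, and Cyp26 enzymes oxidise it and so end its action. The receptors bind DNA as pairs of a RAR and an RXR, and Rarb is itself a classical target that retinoic acid induces through a repeat of half-sites in its promoter.

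Sequences of the carriers show that reads of the paralogs could be told apart, which bears on the comparison between them. The first 120 coding bases of each mouse gene, from GENCODE M21 transcripts on GRCm38 (Crabp2 on chromosome 3, Crabp1 on chromosome 9), are printed 5′ to 3′ with the bases that differ in capitals.
Crabp2: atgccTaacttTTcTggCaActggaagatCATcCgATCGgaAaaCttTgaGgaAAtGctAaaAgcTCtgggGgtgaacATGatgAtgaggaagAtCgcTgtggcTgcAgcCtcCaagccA
Crabp1: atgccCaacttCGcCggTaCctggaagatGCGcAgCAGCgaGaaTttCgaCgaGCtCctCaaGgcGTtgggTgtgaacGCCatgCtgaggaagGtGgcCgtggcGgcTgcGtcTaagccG
In this stretch 38 bases differed. Over the 414 aligned coding bases 293 were identical (70.8%), the longest shared run was 11 bases, and no window of 36 bases was shared between the full transcripts.

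The promoter of Rarb is shown because the gene is the textbook retinoic acid target among the members and its level bears on the question of whether the Crabp2 level goes with other retinoid genes. The 250 bases before the RefSeq start (GRCm38.p6, chr14:16575477-16575726, minus strand) are printed 5′ to 3′ with a matched pair of half-sites in capitals.
Rarb: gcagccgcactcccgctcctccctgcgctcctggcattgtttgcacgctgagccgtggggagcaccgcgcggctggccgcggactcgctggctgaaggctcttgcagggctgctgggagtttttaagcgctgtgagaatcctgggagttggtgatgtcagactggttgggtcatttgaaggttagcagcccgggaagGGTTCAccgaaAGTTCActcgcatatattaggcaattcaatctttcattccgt
The search took 2 half-sites in the same direction, with 1, 2 or 5 bases between them, on either strand of the 250 bases. The half-sites allowed were the consensus AGGTCA, its close variant AGTTCA, then also GGGTCA, and finally the form GGTTCA. The match in Rarb has a spacing of 5 and lies 53 to 37 bases before the start. A pair with that spacing was found in 29 of all 32851 RefSeq promoter windows of this length (0.0883%), and a pair of any of the 3 spacings in 140 windows (0.426%). The windows that the table holds for Crabp1, Rara, Rarg, Rxra, Rxrb, Cyp26b1 and Aldh1a2 had no such match. No window was available for Crabp2, so its promoter was not searched and may or may not hold a match. A match describes the letters only. Rarb was known beforehand as a target with such a repeat, and both its half-sites are among the forms allowed. Its match is therefore no finding, and the shares only describe how rare the pattern is.

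Sfpq was at 26.1, 28.6 and 27.6 RPKM in homozygous libraries, at 185, 163 and 169 RPKM in heterozygous libraries, and at 184, 202 and 218 RPKM in control libraries. The homozygous mean was 13.6% of the control mean (log2 change -2.85 ± 0.07 (SE), limma adjusted p = 1.22e-09), and heterozygous cortex did not pass the test against control (log2 change -0.22, limma adjusted p = 0.709). The estimated depth was between 168 M and 204 M reads per library (M, mega). Markers of cortical radial glia summed to between 1819.5 and 2142 RPKM per library and markers of cortical excitatory neurons to between 437 and 653 RPKM, so the labelled tissue and cell types were present in every library. Across all 12159 genes tested, limma called 34.3% changed in homozygous against control cortex at an adjusted p below 0.05, 14.4% higher and 19.9% lower. Of the genes called, 41.9% were higher, against 54.2% after quantile normalization and 60.3% with the library medians set equal. Read from Y-linked genes, homozygous embryos were 1 female and 2 males, heterozygous embryos 3 males, and control embryos 2 females and 1 male.

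Crabp2, the carrier that delivers retinoic acid to its nuclear receptors, was much higher in homozygous cortex than in the other genotypes, whereas Crabp1 was level across them. Crabp2 had 182, 153 and 160 RPKM in homozygous libraries, 29.5, 30.9 and 32.4 RPKM in heterozygous libraries, and 40.3, 39.8 and 32.8 RPKM in control libraries. The lowest homozygous library was thus far above the highest library of either other genotype. The mean was 165 ± 15.2 RPKM in homozygous cortex and 37.7 ± 4.18 RPKM in control cortex (SD, n = 3 each), a ratio of 4.38. On the log2(RPKM + 0.5) scale used for all log2 changes here, which understates the change of low genes, the difference was 2.12 ± 0.09 (SE) against control and 2.39 ± 0.09 against heterozygous cortex. Because Crabp2 was chosen for this difference, no test is given for it. Of all genes tested, 0.724% had a log2 change of 1 or more in homozygous against control cortex, and 6 genes (0.0493%), Crabp2 among them, had one at least as large as that of Crabp2. These are whole-tissue libraries, so more or fewer cells of a type and more or less RNA per cell cannot be told apart.

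**Figure D1:**
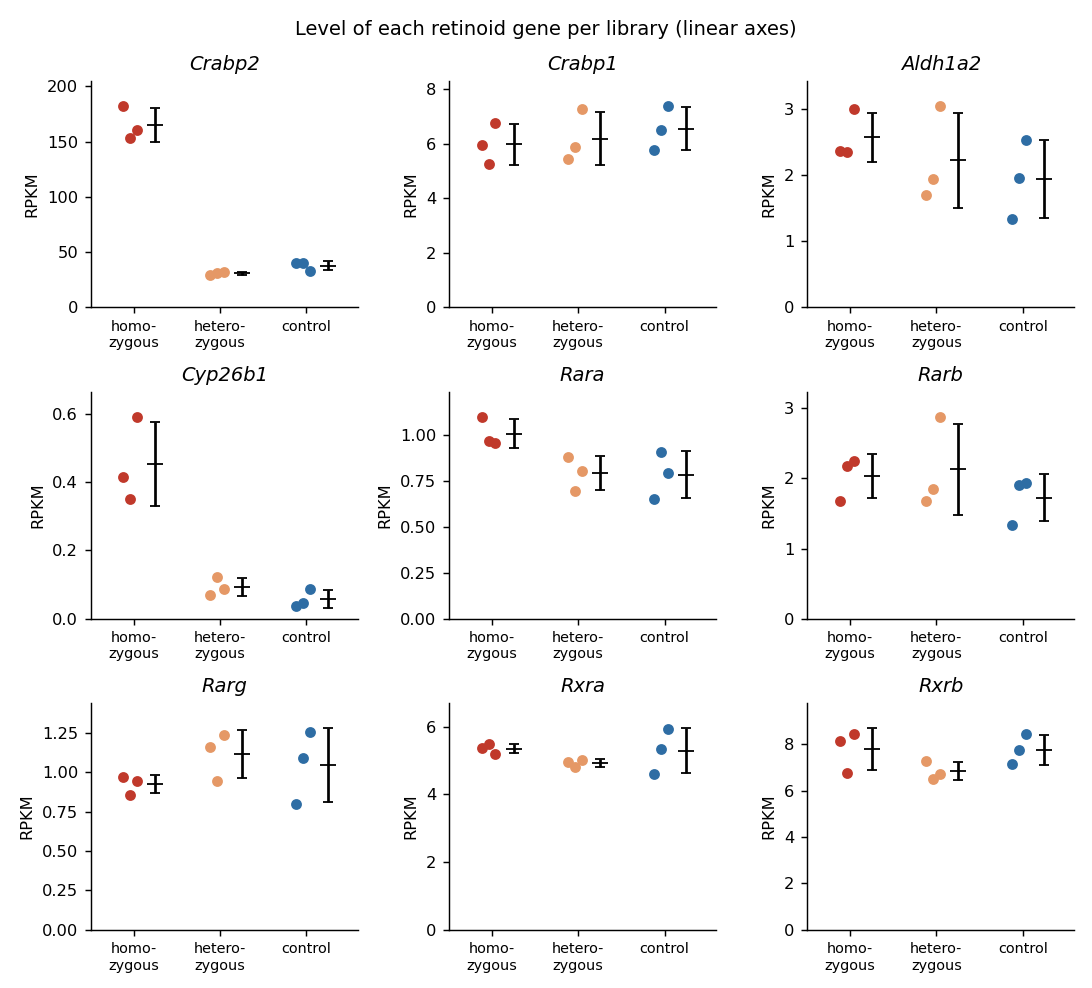
RPKM of each retinoid gene (linear vertical axes starting at 0) in the 3 homozygous, 3 heterozygous and 3 control libraries; points are libraries, and the black bar and whiskers are the mean ± SD. Crabp2 at 153 RPKM or more and Cyp26b1 at 0.351 RPKM or more stand above the other genotypes in homozygous libraries, while Crabp1, Aldh1a2, Rarb, Rarg, Rxra and Rxrb overlap between homozygous and control libraries.

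In heterozygous cortex Crabp2 averaged 31.0 ± 1.45 RPKM, against 37.7 ± 4.18 RPKM in control cortex (SD, n = 3 each), and the libraries of the genotypes did not overlap. The log2 change was -0.27 ± 0.09 (SE), with a 95% interval of 0.726 to 0.943 for the fold and an unadjusted p of 0.00849 in the limma fit. It did not pass the adjustment over all genes (limma adjusted p = 0.709). No overlap between heterozygous and control libraries was seen for 11.1% of all genes tested, and limma called 0 of 12159 genes in this comparison (0%), with 699 at an unadjusted p under 0.05 and 1 gene called without the filter on low values. With the sex of the embryo as a covariate the Crabp2 log2 change was -0.11. The heterozygous level was on the other side of control from the homozygous level, by a difference that did not hold after the adjustment over all genes tested.

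Crabp1, the second cellular carrier, had 5.94, 5.24 and 6.74 RPKM in homozygous libraries, 5.42, 5.87 and 7.27 RPKM in heterozygous libraries, and 5.78, 6.50 and 7.37 RPKM in control libraries. The libraries of all 3 genotypes overlapped. The log2 change was -0.12 ± 0.12 (SE) in homozygous against control cortex (limma adjusted p = 0.473), with a 95% interval of 0.763 to 1.10 for the fold. Crabp2 was 96.5% ± 0.469 of the summed RPKM of both carriers in homozygous cortex, 83.4% ± 1.51 in heterozygous cortex and 85.0% ± 3.00 in control cortex (SD, n = 3 each). The ratio of Crabp2 to Crabp1 was 27.9 ± 3.63 in homozygous cortex, 5.06 ± 0.529 in heterozygous cortex and 5.86 ± 1.28 in control cortex. These ratios carry the Crabp2 difference that chose the gene and are given as a description. They leave out a second RefSeq transcript of Crabp1, which averaged 3.18 RPKM in homozygous cortex, 3.54 RPKM in heterozygous cortex and 3.67 RPKM in control cortex.

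The genes nearest to Crabp2 on chromosome 3 in the files were looked at after the values were known. Of its 6 neighbours, 5 were expressed at a testable level, and none passed the test in homozygous against control cortex. Mrpl24, a mitochondrial ribosomal protein gene, averaged 89.6 ± 1.69 RPKM in homozygous cortex and 82.5 ± 4.15 RPKM in control cortex (log2 change 0.12, limma adjusted p = 0.0961). Nes, the nestin gene of neural progenitors, averaged 176 ± 19.1 RPKM in homozygous cortex and 177 ± 20.3 RPKM in control cortex (SD, n = 3 each). Rrnad1, Isg20l2 and Bcan had log2 changes of -0.06, 0.05 and -0.09, and Hapln2 was near 0 in every library. No annotated gene of the files overlaps Crabp2 or any other member.

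Aldh1a2, which makes retinoic acid from retinal, had 2.37, 2.34 and 2.99 RPKM in homozygous libraries, 1.70, 1.93 and 3.04 RPKM in heterozygous libraries, and 1.33, 1.96 and 2.52 RPKM in control libraries. The libraries overlapped between all genotypes, and the highest value was that of a heterozygous library. The log2 change was 0.35 ± 0.20 (SE) in homozygous against control cortex (limma adjusted p = 0.198), with a 95% interval of 0.945 to 1.73 for the fold, so a moderately higher level was not separable from the spread. In heterozygous against control cortex it was 0.16 ± 0.20 (limma adjusted p = 0.994).

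The meningeal marker list, whose tissue is the known site of Aldh1a2 in the forebrain, summed to between 82.4 and 97.4 RPKM in homozygous libraries, between 74.5 and 106 RPKM in heterozygous libraries, and between 73.2 and 96.4 RPKM in control libraries. Of its 13 tested genes, among them Foxc1, Lum and Dcn, limma called 0 in homozygous against control cortex, with 0 at an unadjusted p under 0.05 and the smallest adjusted p, 0.337, for Twist1. Among heterozygous libraries the one with the lowest meningeal sum had the lowest Aldh1a2 level (74.5 and 1.70 RPKM) and the one with the highest sum the highest level (106 and 3.04 RPKM), and the same held among control libraries. This order did not hold among homozygous libraries: the highest sum, 97.4 RPKM, came with the lowest Aldh1a2 level, 2.34 RPKM, and the lowest sum, 82.4 RPKM, with 2.37 RPKM, while the library with 2.99 RPKM of Aldh1a2 had a sum of 97.0 RPKM. The part of meningeal tissue in the Aldh1a2 values was not tested.

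Cyp26b1, the enzyme of this family that clears retinoic acid in many embryonic tissues, was scarce in control cortex and higher in homozygous cortex. It had 0.415, 0.351 and 0.590 RPKM in homozygous libraries, 0.0686, 0.122 and 0.0861 RPKM in heterozygous libraries, and 0.0361, 0.0465 and 0.0865 RPKM in control libraries. Every homozygous library was above every other library, while heterozygous and control libraries overlapped. Of all genes tested, 20.6% had every homozygous library above every control library, and that share was not taken over genes under the filter. By the estimated depth these values correspond to between 259 and 480 reads in homozygous libraries, between 50 and 93 in heterozygous libraries, and between 27 and 62 in control libraries. The mean was 0.452 ± 0.123 RPKM in homozygous cortex, 0.0923 ± 0.0274 RPKM in heterozygous cortex and 0.0564 ± 0.0266 RPKM in control cortex (SD, n = 3 each), a ratio of 8.01 between homozygous and control means.

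With its overall mean under the limit, Cyp26b1 was tested only in the limma fit with no filter on low values. There it rose in homozygous against control cortex (log2 change 0.77 ± 0.09 (SE), limma adjusted p = 0.00209), and in homozygous against heterozygous cortex (log2 change 0.68 ± 0.09, limma adjusted p = 0.00368). It did not pass in heterozygous against control cortex (log2 change 0.09 ± 0.09, limma adjusted p = 1). In that fit limma called 17.1% of all 23201 genes in homozygous against control cortex, 7.57% of all genes as higher in homozygous cortex. It called 16.1% in homozygous against heterozygous cortex, 7.63% as higher, and 1 gene in heterozygous against control cortex (0.00431%). The size of the fitted change depends on the pseudocount at this level, with a log2 change of 1.81 at a pseudocount of 0.1 and of 0.46 at a pseudocount of 1. Leaving out each library in turn kept the log2 change between 0.67 and 0.84. Its level stayed below that of every other member in the same genotype, and the other retinoic acid hydroxylases were scarcer still.

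The 3 retinoic acid receptors and the 2 retinoid X receptors measured here did not pass the test between any pair of genotypes in the fit of all tested genes. Rara came closest. It had 1.10, 0.967 and 0.958 RPKM in homozygous libraries, 0.880, 0.697 and 0.801 RPKM in heterozygous libraries, and 0.651, 0.905 and 0.792 RPKM in control libraries. The homozygous libraries lay above all others, a pattern of no overlap with control in the higher direction that 20.6% of all genes tested had. The log2 change was 0.24 ± 0.09 (SE) in homozygous against control cortex (limma adjusted p = 0.0765), with a 95% interval of 1.02 to 1.36 for the fold. With the library medians set equal it passed (log2 change 0.30, limma adjusted p = 0.0217), so the call depends on the scaling. The other 3 RefSeq transcripts of Rara gave log2 changes between 0.21 and 0.24.

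Rarb, the receptor that retinoic acid induces, had 1.68, 2.17 and 2.25 RPKM in homozygous libraries, 1.68, 1.84 and 2.87 RPKM in heterozygous libraries, and 1.34, 1.90 and 1.93 RPKM in control libraries. The genotypes overlapped, and the highest value was that of a heterozygous library. The log2 change was 0.19 ± 0.17 (SE) in homozygous against control cortex (limma adjusted p = 0.425), with a 95% interval of 0.882 to 1.47 for the fold. Rarg, the third receptor of the class, had 0.972, 0.858 and 0.942 RPKM in homozygous libraries, 1.16, 0.946 and 1.24 RPKM in heterozygous libraries, and 0.795, 1.09 and 1.25 RPKM in control libraries. Its homozygous values lay inside the control range, with a log2 change of -0.11 ± 0.11 (limma adjusted p = 0.512).

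Rarb is also by far the longest member, with a genomic span of 651.5 kb for the gene and 144.7 kb for the transcript measured here. Of the 147 tested genes spanning 500 kb or more, 104 fell in homozygous against control cortex (70.7%) and 37 were not called (25.2%). Rarb was among the uncalled, and among the 22 of these genes (15%) with a log2 change above 0. Judged by the span of the measured transcript, it sits in the class of 100 to 200 kb, where 321 of 953 genes fell (33.7%) and 524 were not called (55%). These span classes were chosen after the values were seen.

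**Figure D2:**
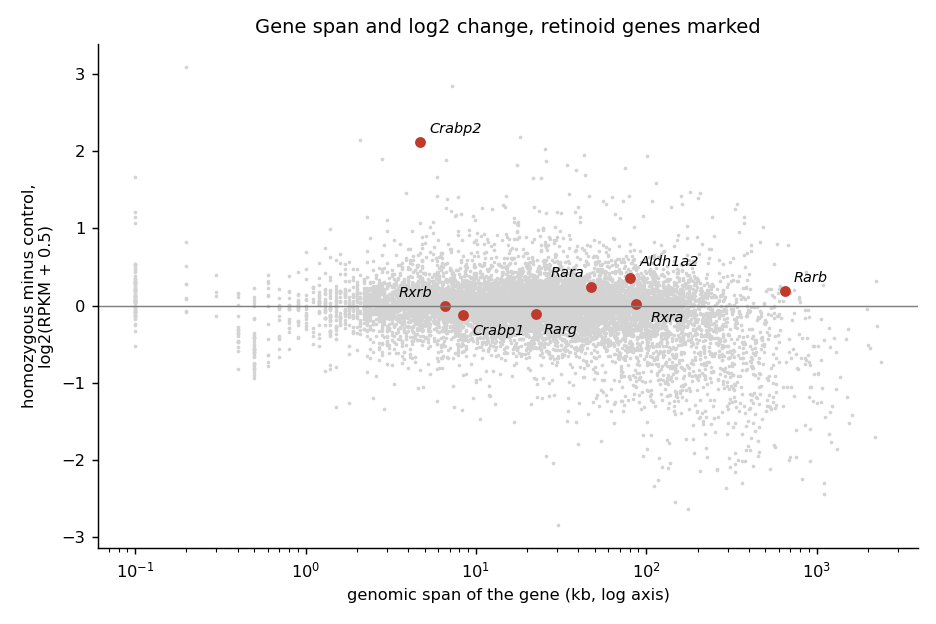
Log2 change in homozygous minus control cortex (vertical axis, log2(RPKM + 0.5)) against the genomic span of each gene (horizontal log axis, kb); grey points are all genes tested, and red points are the 8 tested retinoid genes. Crabp2 stands at 2.12 with a span of 4.7 kb, and Rarb at 0.19 with 651.5 kb, where most genes lie below 0.

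Rxra, the main partner of RARs in many tissues, had 5.38, 5.48 and 5.20 RPKM in homozygous libraries, 4.96, 4.81 and 5.03 RPKM in heterozygous libraries, and 4.61, 5.33 and 5.93 RPKM in control libraries. The log2 change was 0.02 ± 0.08 (SE) in homozygous against control cortex (limma adjusted p = 0.872), with a 95% interval of 0.894 to 1.15 for the fold. Rxrb, a second partner, had 8.15, 6.76 and 8.43 RPKM in homozygous libraries, 7.26, 6.51 and 6.72 RPKM in heterozygous libraries, and 7.13, 7.74 and 8.43 RPKM in control libraries. Its means were 7.78 ± 0.898 RPKM in homozygous cortex and 7.76 ± 0.649 RPKM in control cortex (SD, n = 3 each, limma adjusted p = 0.999), with a 95% interval of 0.871 to 1.15 for the fold. In homozygous against heterozygous cortex Rxrb had a log2 change of 0.17 ± 0.09 (limma adjusted p = 0.178), which passed after quantile normalization (adjusted p = 0.0425), with the medians set equal (adjusted p = 0.0398) and without homozygous replicate 2 (adjusted p = 0.0376).

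Summed by class, the RAR genes came to 3.96 ± 0.204 RPKM in homozygous cortex, 4.04 ± 0.764 RPKM in heterozygous cortex and 3.55 ± 0.665 RPKM in control cortex (SD, n = 3 each). The RXR genes came to 13.1 ± 0.780, 11.8 ± 0.454 and 13.1 ± 1.31 RPKM in homozygous, heterozygous and control cortex. Rarb gave 51.1% of the RAR sum in homozygous cortex, 52.2% in heterozygous cortex and 48.5% in control cortex. The ratio of Crabp2 to the RAR sum was 41.9 ± 5.89 in homozygous cortex, 7.80 ± 1.14 in heterozygous cortex and 11.0 ± 3.17 in control cortex, a description that again carries the choice of Crabp2.

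In control cortex the order of mean levels per transcript length was Crabp2, Rxrb at 7.76 RPKM, Crabp1 at 6.55 RPKM, Rxra at 5.29 RPKM, Aldh1a2 at 1.94 RPKM, Rarb at 1.73 RPKM, Rarg at 1.05 RPKM, Rara at 0.783 RPKM and Cyp26b1. The control libraries of Rxrb and Crabp1, of Crabp1 and Rxra, of Aldh1a2 and Rarb, and of Rarg and Rara overlapped, so the order within each of those pairs is not separated by the spread. In homozygous cortex Rara at 1.01 RPKM and Rarg at 0.924 RPKM stood in the opposite order, with overlapping libraries.

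Apart from Crabp2, 0 of the 7 other tested members were called by limma in homozygous against control cortex, where 34.3% of all genes were called. At an unadjusted p under 0.05 there was 1, Rara at 0.0296. These 7 members had a median log2 change of 0.02, against -0.01 over all genes tested. Cyp26b1 is outside this count and was called higher in the fit with no filter (log2 change 0.77, limma adjusted p = 0.00209). That fit called 17.1% of all genes, 7.57% as higher. In homozygous against heterozygous cortex, where 32.8% of all genes were called (14.6% higher and 18.3% lower), 0 of these 7 members were called, with adjusted p values from 0.0953 (Rara) to 0.894 (Rarb) and Rara alone (0.0379) at an unadjusted p under 0.05. In heterozygous against control cortex 0 of 8 were called, with Crabp2 alone at an unadjusted p under 0.05. Each pair of comparisons shares the libraries of 1 genotype, so these counts are not independent of each other. In simulated data with 200 changed genes among 12159, the homozygous against control test found 19.9% of changes of 0.25 on the log2 scale. The same test found 71.3% of changes of 0.5 and 96.7% of changes of 1. Far more genes were called in the real comparison (34.3%), so the adjusted threshold is less strict there than in the simulation. These shares therefore cannot say how often changes as small as those of Rara or Rarb would be missed.

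**Figure D3:**
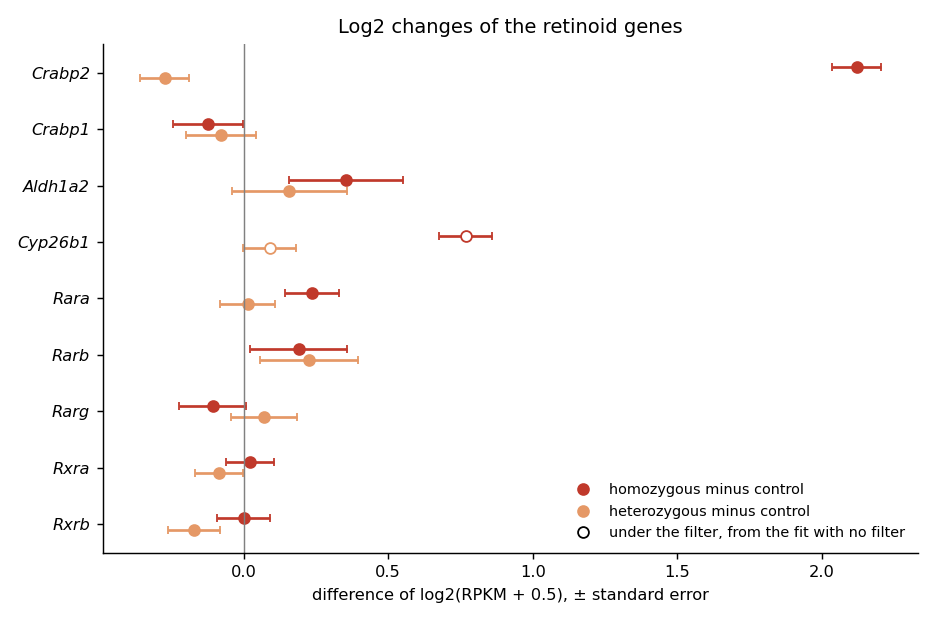
Difference of log2(RPKM + 0.5) ± SE for each retinoid gene, homozygous minus control in red and heterozygous minus control in orange; open points (Cyp26b1) come from the fit with no filter on low values. Crabp2 at 2.12 and Cyp26b1 at 0.77 stand away from 0 in homozygous cortex, and the other red points lie between -0.12 and 0.35.

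The wider pathway was read from 74 other genes grouped by role, a few of them in more than 1 list, of which 36 were abundant enough to test. In homozygous against control cortex 5 of the 36 were higher (13.9%) and 9 lower (25%), against 14.4% and 19.9% of all genes tested, and 22 were not called. The balance depended on the scaling, since 8 were higher and 8 lower both after quantile normalization and with the medians set equal. Their median log2 change was 0.08. In heterozygous against control cortex limma called 0 of 36, with 3 at an unadjusted p under 0.05. Without homozygous replicate 3, control replicate 1 or control replicate 2, 3 genes were higher in place of 5. Meis1 and Ncoa3 were called higher in all 9 fits that left out 1 library. Stra6 and Adh5 were each called in 5 of them. The fit with no filter, which called 17.1% of all genes and 7.57% as higher, also gave 5 higher and 9 lower, but not the same genes. It no longer called Stra6 (limma adjusted p = 0.0913) or Fabp5 (limma adjusted p = 0.131). It added Nav2 as higher (log2 change 0.20, limma adjusted p = 0.00983) and Rdh12 as lower (log2 change -0.23, limma adjusted p = 0.0493).

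Among the 5 tested genes of retinol uptake, carriage and storage, 1 rose and 1 fell in homozygous against control cortex (20% each). Of all genes tested, 14.4% were higher and 19.9% lower. Stra6, the membrane receptor that takes up retinol from its plasma carrier, averaged 0.839 ± 0.0594 RPKM in homozygous cortex and 0.552 ± 0.178 RPKM in control cortex (log2 change 0.36, limma adjusted p = 0.0296). It was not called in the fit with no filter on low values (limma adjusted p = 0.0913). Rlbp1, a retinal-binding protein, averaged 9.26 ± 0.715 RPKM in homozygous cortex and 14.0 ± 2.34 RPKM in control cortex (log2 change -0.56, limma adjusted p = 0.00279).

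Of the 7 tested genes that interconvert retinol and retinal, 1 rose and 1 fell (14.3% each, beside 14.4% higher and 19.9% lower over all genes tested). Rdh10, the main embryonic retinol dehydrogenase, averaged 5.36 ± 0.634 RPKM in homozygous cortex and 4.94 ± 0.543 RPKM in control cortex (limma adjusted p = 0.473). Dhrs3, which turns retinal back to retinol and is known to be induced by retinoic acid, averaged 2.10 ± 0.344 RPKM in homozygous cortex and 1.99 ± 0.665 RPKM in control cortex (limma adjusted p = 0.772). Adh5, a broadly expressed alcohol dehydrogenase, rose slightly, to 114 ± 3.15 RPKM in homozygous cortex against 104 ± 3.09 RPKM in control cortex (limma adjusted p = 0.0373). Dhrs4 fell to 27.7 ± 1.25 RPKM in homozygous cortex, against 37.5 ± 4.63 RPKM in control cortex (limma adjusted p = 0.00157).

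The other enzymes of synthesis and degradation were all too scarce to test, which leaves Aldh1a2 as the most abundant retinal dehydrogenase measured. Aldh1a1 averaged 0.190 RPKM in homozygous cortex, 0.189 RPKM in heterozygous cortex and 0.248 RPKM in control cortex. Aldh1a3 averaged 0.242, 0.508 and 0.473 RPKM in homozygous, heterozygous and control cortex. Cyp26a1, the member of its family that retinoic acid induces most widely, was at or below 0.0529 RPKM in every library, and Cyp26c1 at or below 0.0281 RPKM. Rxrg was also under the limit, at 0.259 RPKM in homozygous cortex and 0.140 RPKM in control cortex. Fabp5, a fatty acid carrier that can also deliver retinoic acid, was by contrast very abundant and fell to 433 ± 35.9 RPKM in homozygous cortex, against 501 ± 23.5 RPKM in control cortex (log2 change -0.21, limma adjusted p = 0.0434). That call was kept in 3 of the 9 fits that left out 1 library and was lost under both other scalings.

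All 12 receptor cofactors were tested, and 2 rose and 2 fell (16.7% each), near the 14.4% higher and 19.9% lower of all genes tested. Ncoa3, a coactivator, averaged 1.83 ± 0.150 RPKM in homozygous cortex and 1.35 ± 0.0762 RPKM in control cortex (limma adjusted p = 0.0115). Zfp423, a zinc finger protein that cooperates with the RAR complex, averaged 3.44 ± 0.177 RPKM in homozygous cortex and 2.74 ± 0.151 RPKM in control cortex (limma adjusted p = 0.0140). Ncoa2, a second coactivator, fell to 3.56 ± 0.0888 RPKM in homozygous cortex, against 4.99 ± 0.494 RPKM in control cortex (limma adjusted p = 0.00157). Hdac3, the deacetylase of the corepressor complex, fell to 51.0 ± 2.26 RPKM in homozygous cortex, against 61.3 ± 1.34 RPKM in control cortex (limma adjusted p = 0.00194). The corepressor Ncor1 was not called.

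Of 33 genes known to be inducible by retinoic acid in other settings, 15 were tested, and 2 rose and 4 fell in homozygous against control cortex. These are 13.3% and 26.7% of the tested genes of the list, beside 14.4% and 19.9% of all genes tested. The pair that moved most is a pair of paralogs with opposite directions. Meis1, a homeodomain cofactor of Hox proteins, had 8.16, 6.50 and 9.40 RPKM in homozygous libraries, 4.18, 2.29 and 2.17 RPKM in heterozygous libraries, and 3.47, 2.55 and 2.97 RPKM in control libraries (log2 change 1.28 ± 0.20 (SE) against control, limma adjusted p = 0.000536). Meis2 had 8.16, 8.11 and 9.32 RPKM in homozygous libraries, 44.8, 40.0 and 41.7 RPKM in heterozygous libraries, and 36.7, 37.8 and 44.4 RPKM in control libraries (log2 change -2.15 ± 0.08, limma adjusted p = 2.43e-08). Homozygous libraries did not overlap with any other library for either gene. No overlap with control in the higher direction was seen for 20.6% of all genes tested. The share in the lower direction, in which Meis2 moved, was not taken. Meis1 made up 48.2% ± 3.23 of the summed RPKM of the pair in homozygous cortex, 6.31% ± 1.95 in heterozygous cortex and 7.07% ± 1.36 in control cortex (SD, n = 3 each).

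The second inducible gene that rose is Stra6, given above. Rai1 fell to 0.769 ± 0.0881 RPKM in homozygous cortex, against 1.18 ± 0.162 RPKM in control cortex (limma adjusted p = 0.00585), and Bhlhe40 to 1.35 ± 0.117 RPKM in homozygous cortex, against 1.82 ± 0.155 RPKM in control cortex (limma adjusted p = 0.00879). Among those not called were Dhrs3, Nrip1, Tgm2, Nr2f1 and Nr2f2. The Hox genes of the list, the classical readout of retinoic acid along the body axis, were at or below 0.0181 RPKM in every library of every genotype.

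**Figure D4:**
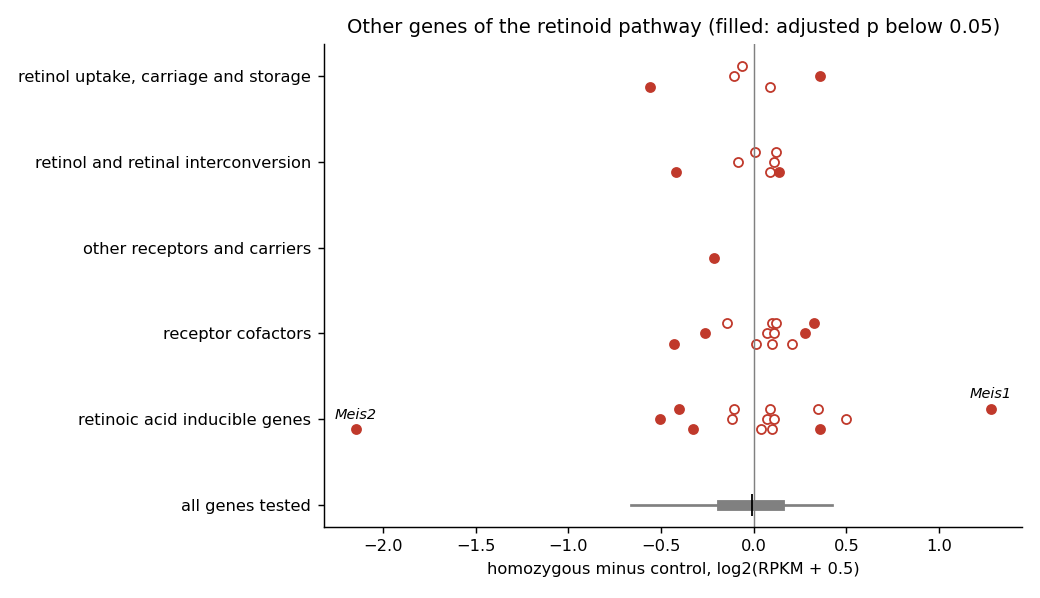
Log2 change in homozygous minus control cortex (log2(RPKM + 0.5)) of the tested genes of each pathway list; filled points have a limma adjusted p below 0.05, and the bottom row gives the median (tick), the middle 50% (thick bar) and the 5th to 95th percentile (thin line) of all genes tested. Points lie on both sides of 0 in every list with more than 1 tested gene, with Meis1 at 1.28 and Meis2 at -2.15 farthest out.

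Several marker lists of other cell types moved with the homozygous genotype, and so with Crabp2 and Cyp26b1. The count called in each list stands beside 14.4% higher and 19.9% lower over all genes tested. The Cajal-Retzius cell list, early-born neurons of the cortical surface, summed to between 59.0 and 71.0 RPKM in homozygous libraries, between 41.2 and 47.0 RPKM in heterozygous libraries, and between 41.3 and 46.6 RPKM in control libraries. Of its 9 tested genes 6 rose and 0 fell in homozygous against control cortex, led by Barhl2 (2.77 ± 0.165 RPKM in homozygous cortex and 1.04 ± 0.0938 RPKM in control cortex, limma adjusted p = 3.70e-06) and Nhlh2 (log2 change 1.01). Its best known markers Reln and Trp73 were not called, with log2 changes of -0.16 and -0.05. The sum rose mostly through Calb2 (24.5 ± 4.27 RPKM in homozygous cortex and 14.2 ± 0.559 RPKM in control cortex) and Nhlh2 (14.3 ± 1.65 and 6.80 ± 0.617 RPKM).

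The list for cortical hem, diencephalon and midbrain summed to between 38.2 and 43.1 RPKM in homozygous libraries, between 28.8 and 33.1 RPKM in heterozygous libraries, and between 27.4 and 32.8 RPKM in control libraries. Of its 8 tested genes 4 rose (Olig3, Tcf7l2, Lhx9 and Rspo3) and 0 fell. Olig3 and Tcf7l2 passed the filter on low values through the homozygous group alone, so the count supports nothing about the list, and of the other 6 genes 2 rose. Some genes of the cortical hem had lower means and did not pass the test: Wnt2b averaged 0.645 ± 0.142 RPKM in homozygous cortex and 0.907 ± 0.244 RPKM in control cortex (limma adjusted p = 0.138), and the log2 changes of Wnt3a and Rspo1 were -0.20 and -0.19. Wnt8b had a higher mean and did not pass either, at 2.30 ± 0.336 RPKM in homozygous cortex and 1.90 ± 0.296 RPKM in control cortex (limma adjusted p = 0.164). Olig3, a factor of dorsal progenitors outside the cortex, had 2.01, 2.10 and 1.36 RPKM in homozygous libraries, 0.0137, 0.125 and 0.0534 RPKM in heterozygous libraries, and 0.00820, 0.00470 and 0.0422 RPKM in control libraries. Lhx9 rose to 7.02 ± 0.548 RPKM in homozygous cortex, against 3.53 ± 0.0727 RPKM in control cortex (limma adjusted p = 4.50e-06). Of the 16 markers, 5 averaged under 0.1 RPKM in homozygous cortex and 8 in control cortex, and the midbrain and hindbrain markers En1, En2, Barhl1, Pax3 and Pax7 did not exceed 0.0499 RPKM in any library.

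The microglia list summed to between 19.2 and 26.6 RPKM in homozygous libraries, between 15.8 and 19.3 RPKM in heterozygous libraries, and between 14.8 and 16.5 RPKM in control libraries. Of its 9 tested genes 4 were higher (44.4%, beside 14.4% of all genes tested), led by C1qb and C1qa. The subpallium list summed to between 15.9 and 21.9 RPKM in homozygous libraries, between 13.0 and 19.6 RPKM in heterozygous libraries, and between 14.2 and 34.9 RPKM in control libraries. Its 3 genes that rose, of 11 tested, were Zfp503, Gad1 and Ebf1, of which Zfp503 passed the filter on low values through the homozygous group alone. Control replicate 1 alone made the high end, and its Crabp2 level was 40.3 RPKM, beside 39.8 and 32.8 RPKM in the other control libraries. Leaving out each library in turn kept the Crabp2 log2 change between 2.03 and 2.17 in homozygous against control cortex. Choroid plexus, with 1 of 8 tested genes called (Otx2), and endothelium, with 0 of 8 called by limma, 0 at an unadjusted p under 0.05 and Esam at the smallest adjusted p of 0.332, overlapped between genotypes in their sums.

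The cortical lists had more genes lower than higher, as had all genes tested (14.4% higher and 19.9% lower). Of 10 excitatory neuron genes 2 rose and 5 fell, with Sox5 at 3.07 ± 0.350 RPKM in homozygous cortex and 7.97 ± 1.77 RPKM in control cortex (limma adjusted p = 4.00e-05) and Fezf2 at 2.45 ± 0.115 RPKM in homozygous cortex and 3.98 ± 0.296 RPKM in control cortex (limma adjusted p = 0.000204). The list summed to between 437 and 522 RPKM in homozygous libraries and between 553 and 650 RPKM in control libraries. Of 10 radial glia genes 1 rose and 3 fell, Lhx2 and Fabp7 with the smallest adjusted p. Crabp2 and Cyp26b1 were high in the same libraries as Lhx9 and as the summed Cajal-Retzius list, of which Reln and Trp73 were not called. The microglia sum was also above control in these libraries. Olig3 was high in them too, but it passed the filter on low values through the homozygous group alone. Any gene that is higher in homozygous cortex shares these libraries, and 20.6% of all genes tested had every homozygous library above every control library. Sharing them therefore links no cell type to the retinoid genes. The part of these cell types in the retinoid levels was not tested.

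**Figure D5:**
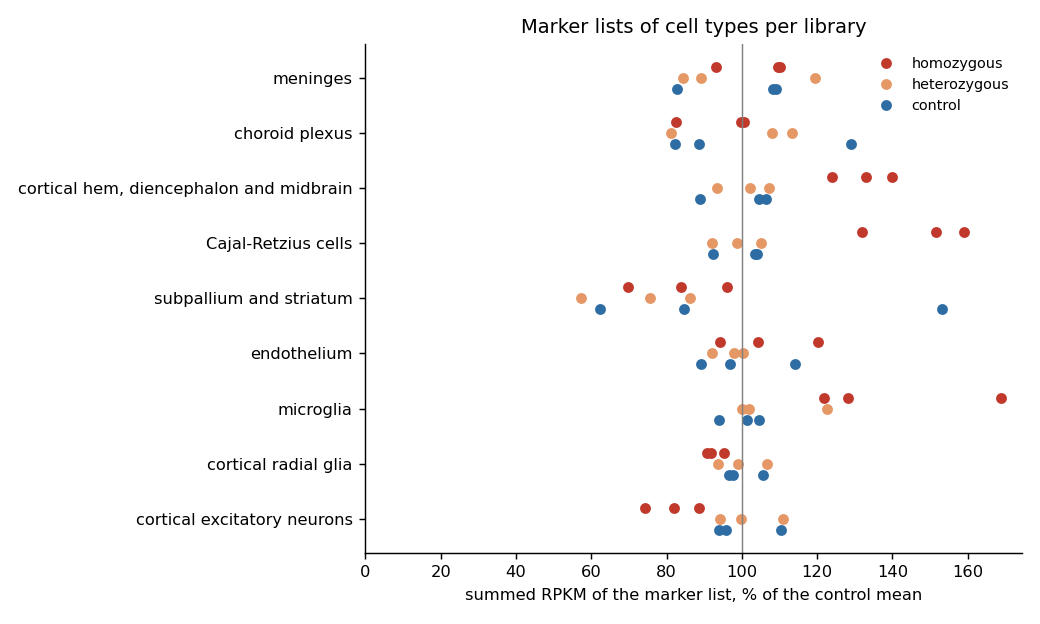
Summed RPKM of each marker list per library, as a percentage of the control mean (horizontal axis, linear); each point is a library, with homozygous libraries uppermost in each row, then heterozygous, then control. Homozygous libraries lie above all control libraries for Cajal-Retzius cells, for cortical hem, diencephalon and midbrain, and for microglia, and below them for both cortical lists. The radial glia sum rests largely on Fabp7, which fell, and Vim, which rose.

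The genes whose profile over the 9 libraries was nearest to that of Crabp2 were found by the root mean square difference of log2(RPKM + 0.5) after subtracting each gene's control mean, and are a description. They were Robo3 (0.194), Upp1 (0.197), Samd3 (0.235), Scel (0.239), Pdlim3 (0.241) and Olig3 (0.288). Scel and Olig3 passed the filter on low values through the homozygous group alone, and this scale understates their change. Scel averaged 1.59 RPKM in homozygous cortex, 0.0358 RPKM in heterozygous cortex and 0.0362 RPKM in control cortex. Robo3, a receptor of commissural axons, averaged 4.06 ± 0.219 RPKM in homozygous cortex, 0.676 ± 0.00210 RPKM in heterozygous cortex and 0.788 ± 0.133 RPKM in control cortex (SD, n = 3 each). Upp1, a uridine phosphorylase, averaged 5.65 ± 0.587 RPKM in homozygous cortex, 0.780 ± 0.166 RPKM in heterozygous cortex and 0.847 ± 0.0810 RPKM in control cortex. None of these 6 genes is on the retinoid lists. The other tested members lay between 1.09 for Aldh1a2 and 1.32 for Rarg, and Aldh1a2 ranked 1291 among all other genes tested. Since the measure follows the size of the change, members with small changes lie far from Crabp2 by construction.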

How the data were processed

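RNA of 9 cortices (3 homozygous, 3 heterozygous, 3 control embryos) was measured by sequencing. For each library the authors deposited RPKM values of 30978 RefSeq transcripts, as the column headers name them, so depth and transcript length are already divided out. CASAVA 1.8.2, TopHat 1.4.1 and the build mm9 are named in the submitters' processing notes. Not given in the sources used here are the program that counted, its annotation, whether strand was used and how multiply mapped reads were treated, and transcripts of 1 gene can share reads.

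Gene names came from a RefSeq table on GRCm38.p6 (30507 transcripts) and the GENCODE M21 table (178 transcripts), and 293 transcripts stayed unnamed. Genomic spans are those of GRCm38. Each gene was represented by the transcript with the highest mean RPKM. The 9 libraries were fitted together by genotype with limma 3.58.1 in R 4.3.3 (moderated variances, trended on the mean) on log2(RPKM + 0.5). The fit held the 12159 genes whose mean reached 0.5 RPKM, and a gene was called where the p adjusted over all of them by Benjamini-Hochberg lay below 0.05. Read numbers are approximate, since among values below 5 reads 68.5% to 72.3% came out whole to 0.1, too few for a count test. The median SE of a log2 change was 0.0825. No table occurred more than once, and any 2 libraries of a genotype differed with an SD of at least 0.148 on the log2 scale. Each replicate is an embryo, so p-values measure the spread between embryos.

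The members, the gene and marker lists and the tests were chosen with earlier results of these data known. Named genes are all members, Sfpq, up to 6 called genes of each pathway list with the smallest adjusted p, 10 pathway genes named whatever they did, the 6 genes nearest to Crabp2, and 2 genes of each marker list with the smallest adjusted p. Values of a few genes that the rule takes are not reported here. Genes named beyond that rule (neighbours of Crabp2, and examples of uncalled or additional list genes) and the span classes were chosen after their values were seen. Tested on simulated data (200 changed genes, 10 runs), the method made calls of which 5.35% were false. Alternatives were the pseudocount, the filter, the transcript chosen, the scaling, the groups fitted, the trend, sex, a replicate block and leaving out each library. Alignments used biopython 1.88 and figures matplotlib 3.10.9.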

Additional observations from a re-analysis of the deposited data

How the results depend on the processing

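Log2 changes of RPKM + 0.5 understate low genes, and at this depth Cyp26b1 rests on between 27 and 62 reads in a control library. The Crabp2 log2 change in homozygous against control cortex stayed between 2.03 and 2.20 under every alternative run, and Cyp26b1 was called in that comparison in each fit made without the filter. These Cyp26b1 fits under further settings were added after the data were seen. The number of all genes called in homozygous against control cortex was between 3111 and 4123 when 1 library was left out. The number of other pathway genes called higher, 5 in the reported fit, was 3 with a filter of 2 RPKM, 8 after quantile normalization, 8 with the medians set equal, and between 3 and 6 when 1 library was left out. In heterozygous against control cortex, 1 gene in place of 0 was called without the filter on low values and 1 when only the groups compared were fitted, and 0 or 1 when 1 library was left out.

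Small log2 changes that did not pass the test turned their sign. In homozygous against control cortex Rxrb was at 0.0001 with a pseudocount of 1, 0.0213 with the longest transcript, 0.0569 after quantile normalization, 0.0674 with the medians set equal and between -0.0578 and 0.0922 when 1 library was left out. Rxra was at -0.0165 with sex as a covariate and between -0.0654 and 0.1001 when 1 library was left out. In heterozygous against control cortex, sex as a covariate gave -0.0012 for Rarg and -0.0579 for Aldh1a2. Leaving out 1 library gave log2 changes between -0.19 and 0.0032 for Crabp1, between -0.0626 and 0.0811 for Rara, between -0.0507 and 0.17 for Rarg and between -0.0472 and 0.33 for Aldh1a2. In homozygous against heterozygous cortex Crabp1 was at 0.0132 after quantile normalization, 0.0165 with the medians set equal and between -0.13 and 0.0701 when 1 library was left out. Rarb was at 0.0236 with the medians set equal, 0.0513 with sex as a covariate and between -0.16 and 0.16 when 1 library was left out. The cause of these sign changes was not tested.

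Replicate numbers do not pair the embryos by any label, and the deviations of same-numbered homozygous and control libraries correlated at 0.404, 0.068 and 0.322. With a replicate block limma called 4429 genes in homozygous against control cortex in place of 4170, 0 in heterozygous against control cortex (812 at an unadjusted p under 0.05), and 4267 in homozygous against heterozygous cortex. Aldh1a2 passed with the block (log2 change 0.35, limma adjusted p = 0.0247) and missed the threshold without it (limma adjusted p = 0.198).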
